A study of Homo sapiens with 4 samples.

Results

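The genes described here are 57 regulators of the cell division cycle: cyclins, cyclin-dependent kinases (CDKs) and the phosphatases and inhibitors that act on them, the retinoblastoma (RB) and E2F families, the DREAM complex factors, and a set of anti-proliferative genes. They were chosen by name and known role. Each of the 57 symbols matched 1 Ensembl identifier among the 64252 gene rows of the count table. Counts came from RNA sequencing of SK-N-BE(2), an established human neuroblastoma line with amplified MYCN. The control cells carried a scramble short hairpin RNA (shRNA, written sh-Scb in the labels), and the other cells carried an shRNA against IRF2BP2 (sh-IRF2BP2), a transcriptional co-regulator. Each group had 2 libraries, and the comparison addresses how the cell cycle transcripts respond to lower IRF2BP2. One shRNA per group is named in the labels, with no time after its delivery. Whether the 2 libraries of a group are separate cultures is not stated, so the p-values cover the spread between libraries, which may be technical.

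Progress through the cell cycle is driven by kinases that are active only when bound to a cyclin. In G1, cyclin D with CDK4 or CDK6 and then cyclin E with CDK2 phosphorylate RB proteins, which releases E2F factors to transcribe the genes of DNA replication. In quiescent and early G1 cells the RB relatives p107 and p130, E2F4 and the MuvB core form the DREAM complex, which represses cell cycle genes, and in S phase and G2 the MuvB core joins MYBL2 and then FOXM1 to switch on the mitotic genes. Entry into mitosis needs CDK1 with cyclin B, which WEE1 and PKMYT1 hold back and CDC25 phosphatases release.

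Total counts lay between 30847699 and 34684651 per library. Levels are given in CPM, the count per 1000000 counts of a library, scaled between libraries. IRF2BP2 itself had 243 and 238 CPM with scramble and 89.6 and 87.5 CPM with the IRF2BP2 shRNA (log2 fold change -1.44, standard error 0.039, edgeR adjusted p = 5.87e-10), so the targeted gene was 2.72-fold lower in the libraries labelled with its shRNA. All 16 neuroblastoma markers on a fixed list were detected, GATA3 among them. Their summed level was 10639 and 11068 CPM with scramble and 10213 and 10366 CPM with the IRF2BP2 shRNA. MYCN took the largest part of that sum, with 5355 and 5511 CPM with scramble and 7067 and 7167 CPM with the IRF2BP2 shRNA, and rose. Of the 16, 12 fell (75.0%, against 21.4% of all genes tested) and 2 rose, with a median log2 fold change of -0.79 and 6 markers past 2-fold. Of 24 markers of other cell types, between 7 and 9 were at 0 in each library, PECAM1, CD3E, KRT5 and HBB in all 4, and their summed level was 153 to 155 CPM with scramble and 154 to 157 CPM with the shRNA. LUM and COL3A1, matrix genes, held most of that sum. Of the 13 of these markers that were tested, 4 rose (30.8%, against 20.6% of all genes tested) and 4 fell (30.8%, against 21.4%). Their log2 fold changes ran from -1.30 to 2.24, with 6 past 2-fold, against 1852 of all 19093 genes tested. The median level of the 13 with scramble was low, at 1.77 CPM. The part of either marker list in the results was not tested. Mitochondrially encoded genes took 7.27% and 7.10% of counts with scramble and 6.42% in each IRF2BP2 shRNA library, and the part of this difference in the results was not tested.

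Cyclins D1, D3 and E1, CDC25A and E2F1, which act in G1 and as S phase begins, rose, and so did MYBL2, which acts from S phase on. Of other genes of G1 and S phase entry, CDK4, CDK2, CCNE2 and E2F3 were not called and TFDP1 fell. CDK1, CDC25C, CCNB2 and WEE1, which act in G2 and mitosis, and cyclin A2, which acts in S phase and G2, fell, while CCNB1 and CDC25B were not called and PKMYT1 rose. RB1, CDK6 and 5 of 7 CDK inhibitors also fell. Of the 57 regulators, 56 passed the filter on low counts, and 40 of them (71.4%) changed, against 42.0% of all 19093 genes tested. Of the 56, 14 rose (25.0%, against 20.6% of all genes) and 26 fell (46.4%, against 21.4%). CDKN2B, among the 14, passed the filter only through the libraries where it is high, so its call adds nothing to the count. A gene is said to rise or fall where edgeR's quasi-likelihood test gave an adjusted p under 0.05 over all genes tested. The median log2 fold change, IRF2BP2 shRNA over scramble, was -0.11 for the regulators and -0.011 for all genes tested. The regulators are well expressed, and calls are more frequent among such genes: with a mean of at least 10 CPM, 37 of 49 regulators (75.5%) and 57.3% of 10382 genes changed. Among those, 26.5% of the regulators and 31.5% of all genes rose, and 49.0% and 25.8% fell. Most changes were small. Of the 40 called regulators, 22 moved by less than 1.5-fold, and tested against a change of 1.5-fold 8 of 56 (14.3%) passed, against 8.48% of all genes (2.85% higher and 5.63% lower). The 8 were CCND1, MYBL2, BTG3 and, with the same limit, CDKN2B, which were higher, and CDK1, CDC25C, TOB1 and TXNIP, which were lower. The libraries of the groups did not overlap for 47 of the 56 regulators (83.9%), which was so for 70.4% of all genes tested (34.4% with the shRNA libraries above and 36.0% with them below). In RNA from a whole culture, a smaller share of cells in a phase of the cycle and less RNA per cell cannot be told apart, and no cell cycle profile of these cells was used here.

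**Figure D1:**
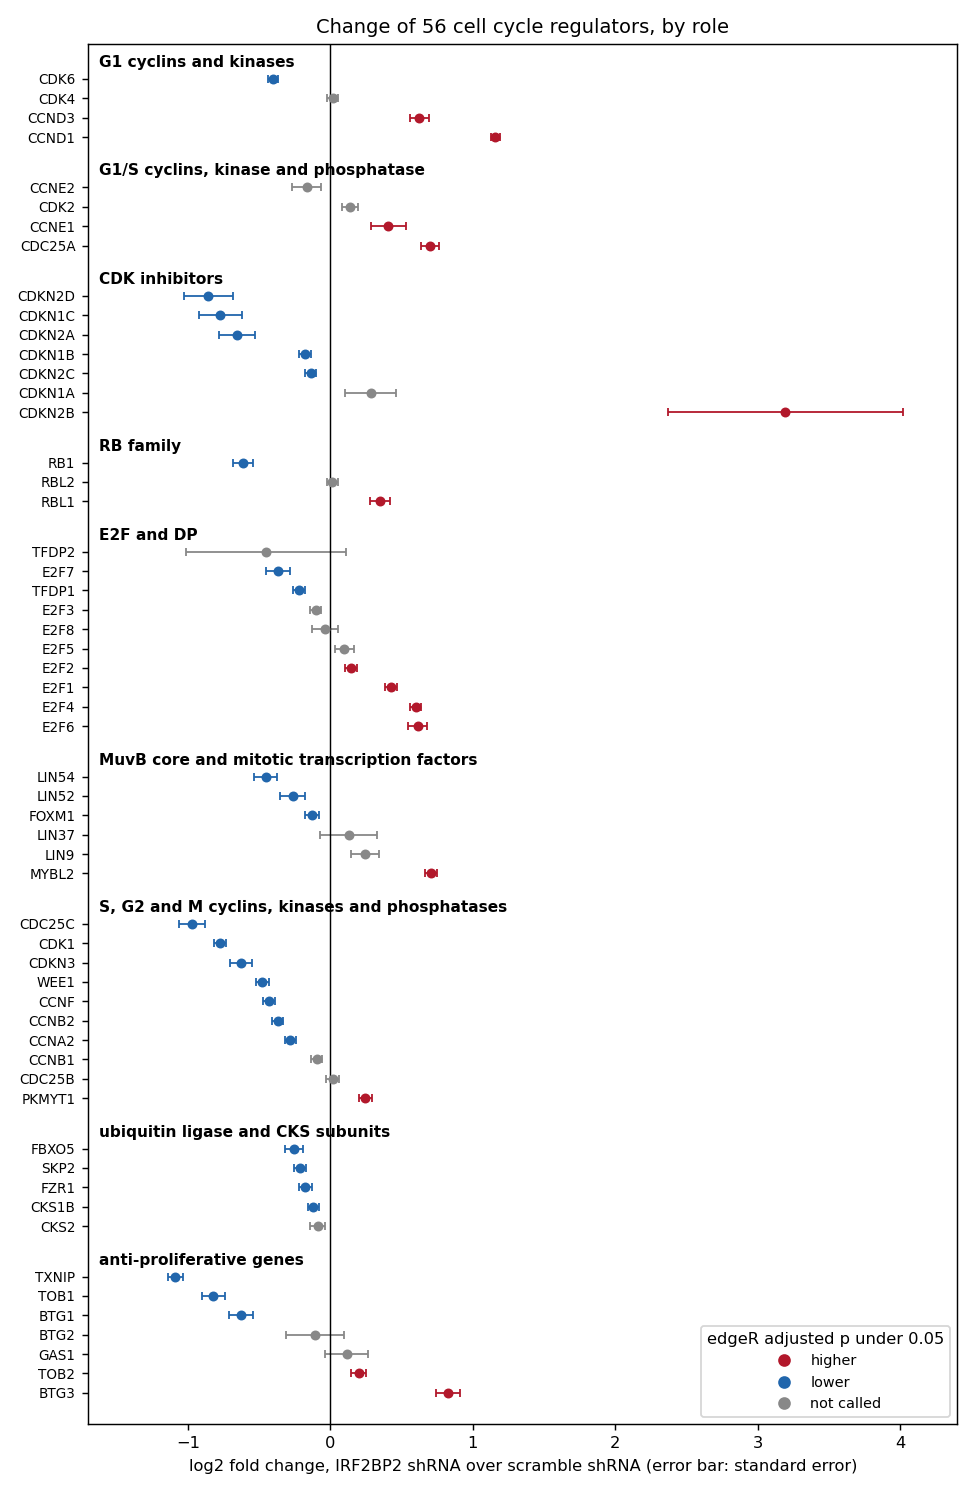
Log2 fold change (IRF2BP2 shRNA over scramble, x axis) of the 56 regulators tested, grouped by role; points are edgeR estimates, bars their standard errors, and colours show the call. Most of the S, G2 and M regulators lie left of 0, CCND1 lies at 1.16, and the wide bars of CDKN2B and TFDP2 belong to a gene with few counts and a gene whose scramble libraries disagreed.

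Promoter sequences were set beside these changes, since promoters of the early and late cell cycle genes are known to differ. Mitotic genes are known for a cell cycle genes homology region (CHR), through which the MuvB core binds, often with CCAAT boxes upstream, and replication genes for E2F sites. RefSeq windows of 300 bases (GRCh38.p14, 250 bases before to 50 after the gene start) were in the table for 47 of the 57 regulators. They were searched on both strands for the CHR letters TTTGAA, the variant TTTAAA, the CCAAT box CCAAT, and an E2F site in 4 forms (TTTCCCGC, TTTCGCGC, TTTGCCGC and TTTGGCGC). No motif contains another, and matches may overlap. TTTGAA was present in 7 of 23 promoters of regulators that fell, 0 of 12 of those that rose and 3 of 12 of those not called, and in 15.2% of all 35116 promoters. The variant TTTAAA was present in 3 of the 23, 1 of the 12 and 3 of the 12, against 12.2% of all promoters. An E2F site was present in 4 of 23 that fell, 4 of 12 that rose and 1 of 12 not called, against 3.31% of all promoters, and a CCAAT box in 12, 2 and 7, against 34.6%. The 4 that rose and hold an E2F site were RBL1, E2F1, E2F2 and CDC25A. In the wider lists, TTTGAA was in 38 of 54 mitosis promoters (70.4%) and 2 of 48 replication promoters (4.17%), and an E2F site in 4 of 54 and 22 of 48. A match describes letters only, and these shares carry no test. Near matches and other starts of the regulators and list genes were not searched, so the counts may miss sites.

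The 200 bases before the RefSeq start of 3 regulators that fell (CDK1, CCNB2 and CDC25C) and 3 that rose (E2F1, CDC25A and MYBL2) are shown 5′ to 3′, with matches to the 4 motifs in capitals. CDK1, CCNB2, E2F1 and CDC25A hold matches. CDC25C and MYBL2, which passed the test against 1.5-fold, hold no exact match in these windows. Near matches and other starts of these genes were not searched, so sites there would be missed.
CDK1 (chr10:60778131-60778330, plus strand): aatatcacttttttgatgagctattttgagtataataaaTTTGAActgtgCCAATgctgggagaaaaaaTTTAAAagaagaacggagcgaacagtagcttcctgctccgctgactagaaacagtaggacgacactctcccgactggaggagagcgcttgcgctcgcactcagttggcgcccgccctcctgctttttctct
CCNB2 (chr15:59104946-59105145, plus strand): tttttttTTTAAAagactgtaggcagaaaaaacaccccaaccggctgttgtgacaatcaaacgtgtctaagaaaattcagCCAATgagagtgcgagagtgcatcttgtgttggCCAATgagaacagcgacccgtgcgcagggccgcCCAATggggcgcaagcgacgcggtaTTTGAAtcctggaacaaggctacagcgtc
CDC25C (chr5:138338356-138338555, minus strand): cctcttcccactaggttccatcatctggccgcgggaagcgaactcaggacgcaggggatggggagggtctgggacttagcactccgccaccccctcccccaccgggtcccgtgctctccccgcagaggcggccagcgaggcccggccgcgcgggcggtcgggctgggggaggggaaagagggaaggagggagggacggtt
E2F1 (chr20:33686386-33686585, minus strand): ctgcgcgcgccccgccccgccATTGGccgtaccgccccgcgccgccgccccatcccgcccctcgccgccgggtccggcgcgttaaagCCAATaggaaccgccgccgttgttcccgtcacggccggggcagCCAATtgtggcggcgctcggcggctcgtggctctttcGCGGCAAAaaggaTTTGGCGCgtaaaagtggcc
CDC25A (chr3:48188418-48188617, minus strand): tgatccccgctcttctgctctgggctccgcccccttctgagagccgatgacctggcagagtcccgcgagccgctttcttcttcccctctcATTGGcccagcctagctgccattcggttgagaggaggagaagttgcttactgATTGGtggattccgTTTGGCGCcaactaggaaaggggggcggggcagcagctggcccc
MYBL2 (chr20:43666914-43667113, plus strand): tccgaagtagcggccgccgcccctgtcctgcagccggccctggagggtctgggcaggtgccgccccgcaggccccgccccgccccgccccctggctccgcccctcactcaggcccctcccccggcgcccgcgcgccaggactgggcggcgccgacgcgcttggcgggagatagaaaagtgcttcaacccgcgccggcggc
In CCNB2 the TTTGAA match starts 29 bases before the gene start with CCAAT boxes at -54, -87 and -120, evenly spaced upstream of it. The CDK1 window does not show this order: its TTTGAA match starts at -161, upstream of its CCAAT box at -150. That window ends 50 bases after the RefSeq start, so CDK1 sites further downstream were not searched. In CDC25A a TTTGGCGC match starts at -44, and in E2F1 a TTTGGCGC match at -20 follows GCGGCAAA, the reverse form of TTTGCCGC, at -33.

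The D cyclins CCND1 and CCND3 rose, and CDK6, one of their kinases, fell. CCND1, the main D cyclin of neuroblastoma (chr11:69641087-69654474, GRCh38), had 568 and 557 CPM with scramble and 1247 and 1265 CPM with the IRF2BP2 shRNA. Both shRNA libraries lay far above both controls, a 2.23-fold rise (log2 fold change 1.16, standard error 0.034, edgeR adjusted p = 9.28e-10). CCND3 had 36.8 and 40.1 CPM with scramble and 61.0 and 57.7 CPM with the IRF2BP2 shRNA, again with no overlap (log2 fold change 0.63, standard error 0.069, edgeR adjusted p = 2.48e-05). CCND2 was not tested, with 2 counts over the scramble libraries and 0 over the IRF2BP2 shRNA libraries. A count of 0 allows up to 0.0469 CPM over that group (3 counts; counting error only). CDK6 had 728 and 707 CPM with scramble and 539.6 and 547 CPM with the IRF2BP2 shRNA, lower in both shRNA libraries (log2 fold change -0.40, standard error 0.036, edgeR adjusted p = 4.48e-06). CDK4, its close relative, had 358 and 353 CPM with scramble and 357 and 363 CPM with the IRF2BP2 shRNA with overlapping groups (log2 fold change 0.016, edgeR adjusted p = 0.768). Per kilobase of exon, CCND1 (116 CPM per kilobase with scramble) and CDK4 (112) stood near the top of the 57 regulators, below CKS2 (163), and CDK6 stood at 58.5. The share of CDK4 in the CDK4 and CDK6 total per kilobase was 65.6% and 65.9% with scramble and 71.9% and 72.0% with the IRF2BP2 shRNA, without overlap. CCND1 took most of the D cyclin total per kilobase, 94.9% and 94.3% with scramble and 96.1% and 96.3% with the IRF2BP2 shRNA.

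At the G1 to S transition the phosphatase CDC25A and cyclin E1 rose. CDC25A, which removes inhibitory phosphates from CDK2, had 36.2 and 37.2 CPM with scramble and 59.7 and 59.7 CPM with the IRF2BP2 shRNA. Its replicates nearly coincided and the groups lay well apart (log2 fold change 0.70, standard error 0.063, edgeR adjusted p = 4.61e-06). CCNE1 had 11.3 and 10.02 CPM with scramble and 14.1 and 14.2 CPM with the IRF2BP2 shRNA (log2 fold change 0.41, standard error 0.12, edgeR adjusted p = 0.0187), a smaller rise at a low level. CCNE1 was no longer called with DESeq2 (adjusted p = 0.0553) and without scramble replicate 2 (0.0872), IRF2BP2 shRNA replicate 1 (0.0645) or IRF2BP2 shRNA replicate 2 (0.0786), and over 11 alternatives its adjusted p spanned 0.0114 to 0.0872. CCNE2, the second cyclin E, had 18.3 and 17.5 CPM with scramble and 15.1 and 16.9 CPM with the IRF2BP2 shRNA and was not called (log2 fold change -0.17, edgeR adjusted p = 0.232). The share of CCNE1 in the cyclin E total per kilobase was 51.5% and 49.6% with scramble. It was 61.7% and 59.1% with the IRF2BP2 shRNA, again without overlap. INTS8, on the opposite strand, overlaps 37.0% of the CCNE2 exon bases, so this share is uncertain. CDK2 had 76.5 and 81.5 CPM with scramble and 83.0 and 90.7 CPM with the IRF2BP2 shRNA, higher in both shRNA libraries but not called (log2 fold change 0.14, edgeR adjusted p = 0.0681). CDK2 passed the test with the replicate block (adjusted p = 0.0251) and without scramble replicate 2 (0.0255) or IRF2BP2 shRNA replicate 1 (0.0264), and over 11 alternatives its adjusted p spanned 0.0251 to 0.434.

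**Figure D2:**
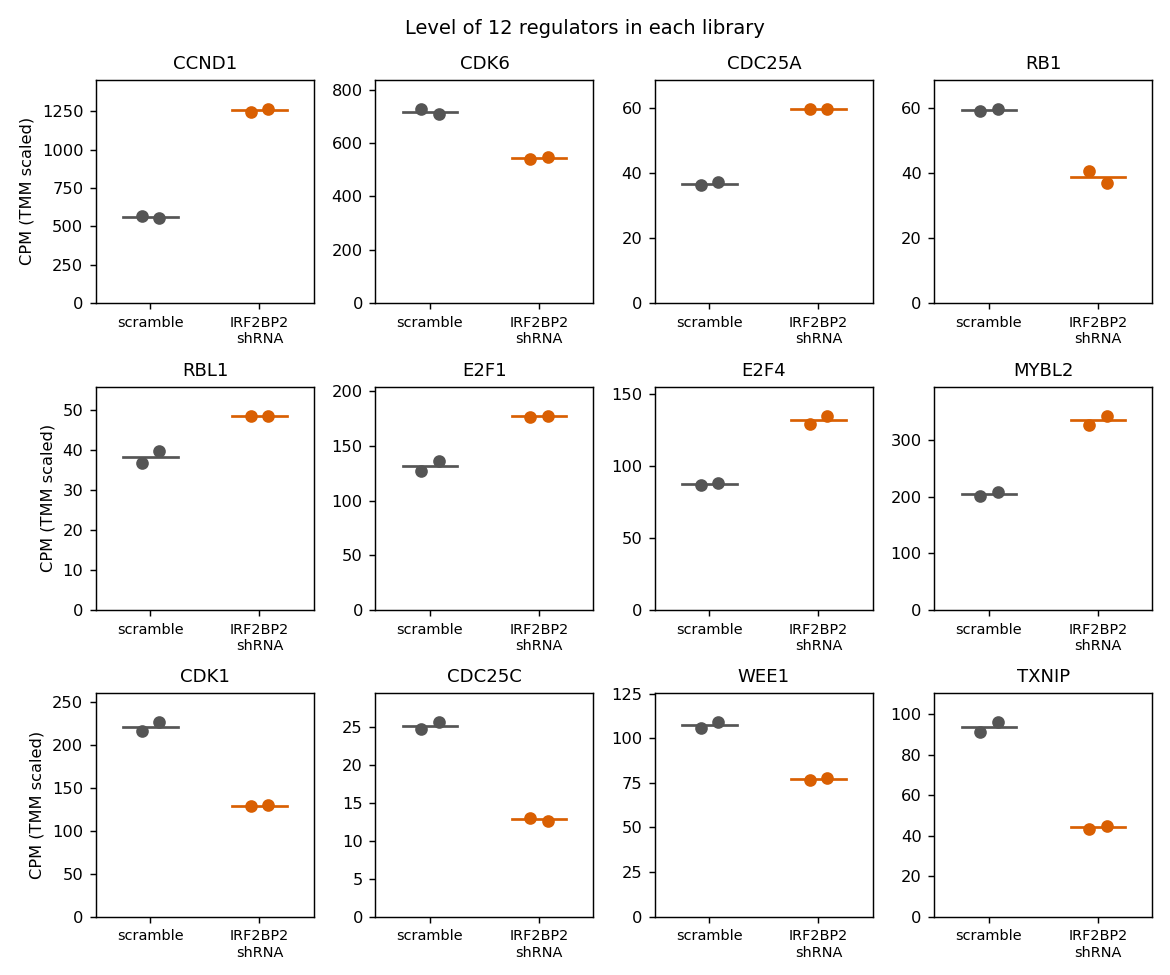
Level of 12 regulators in CPM (y axis, TMM scaled, starting at 0) in each of the 2 scramble and 2 IRF2BP2 shRNA libraries; each point is 1 library and the line is the mean of 2. In each panel the 2 libraries of a group lie close together and the groups do not overlap, with CCND1, CDC25A, RBL1, E2F1, E2F4 and MYBL2 higher and the other 6 lower with the shRNA.

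Of 7 CDK inhibitors tested, 5 fell (71.4%, against 21.4% of all genes tested) and 1 rose. The falls of CDKN1B and CDKN2C were small and depended on single libraries, and the median log2 fold change of the 7 was -0.18. Among the CIP/KIP inhibitors, which bind CDK2 complexes, CDKN1C (p57) had 9.82 and 10.8 CPM with scramble and 6.22 and 5.87 CPM with the IRF2BP2 shRNA, a fall of 1.71-fold in both shRNA libraries (log2 fold change -0.77, standard error 0.15, edgeR adjusted p = 0.00151). CDKN1B (p27) had 150.1 and 157 CPM with scramble and 139 and 132 CPM with the IRF2BP2 shRNA, a fall of 1.13-fold (log2 fold change -0.18, standard error 0.042, edgeR adjusted p = 0.00522). CDKN1B was no longer called without IRF2BP2 shRNA replicate 2 (adjusted p = 0.0837), and over 11 alternatives its adjusted p spanned 4.82e-04 to 0.0837. CDKN1B was the leading member, and its share of the CIP/KIP total per kilobase was 90.7% and 90.6% with scramble and 92.1% and 91.9% with the IRF2BP2 shRNA. CDKN1A (p21) stood low at 4.55 and 4.36 CPM with scramble and 5.35 and 5.49 CPM with the IRF2BP2 shRNA. Both shRNA libraries were above both controls, but the difference was not called (log2 fold change 0.28, edgeR adjusted p = 0.244). The INK4 inhibitors bind CDK4 and CDK6. CDKN2D (p19) had 7.46 and 7.19 CPM with scramble and 4.06 and 4.03 CPM with the IRF2BP2 shRNA (log2 fold change -0.86, standard error 0.17, edgeR adjusted p = 0.00184). CDKN2A, which encodes p16 and ARF and cannot be split into them from gene counts, had 13.3 and 14.6 CPM with scramble and 9.16 and 8.52 CPM with the IRF2BP2 shRNA (log2 fold change -0.65, standard error 0.13, edgeR adjusted p = 0.00149). Both fell with no overlap. CDKN2C (p18), by far the leading INK4 member per kilobase, had 181 and 185 CPM with scramble and 165 and 168 CPM with the IRF2BP2 shRNA, a fall of 1.10-fold (log2 fold change -0.14, edgeR adjusted p = 0.0134). CDKN2C was no longer called without IRF2BP2 shRNA replicate 1 (adjusted p = 0.127) or IRF2BP2 shRNA replicate 2 (0.0701), and over 11 alternatives its adjusted p spanned 9.08e-04 to 0.127. CDKN2B (p15), a target of TGF-beta signalling, was the exception. Its counts were 1 and 3 with scramble and 11 and 27 with the shRNA, and it passed the count filter only through the shRNA libraries. The ratio of its summed counts, scaled to library totals, was 9.73 (95% exact conditional binomial interval 3.50 to 37.5, counting error only), given as a description since the gene was tested only because it was high with the shRNA. CDKN2B was no longer called without scramble replicate 1 (adjusted p = 0.0651) or IRF2BP2 shRNA replicate 2 (0.178), and over 9 alternatives its adjusted p spanned 0.00793 to 0.178.

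Of the 3 RB family members, RB1 fell, RBL1 rose and RBL2 was not called. RB1, the tumour suppressor that binds activating E2F factors (chr13:48303726-48599436), had 59.1 and 59.9 CPM with scramble and 40.8 and 37.0 CPM with the IRF2BP2 shRNA, a 1.53-fold fall with both shRNA libraries well below the controls (log2 fold change -0.61, standard error 0.069, edgeR adjusted p = 2.64e-05). RBL1 (p107), itself an E2F target, had 36.6 and 39.7 CPM with scramble and 48.4 and 48.6 CPM with the IRF2BP2 shRNA, higher in both (log2 fold change 0.35, standard error 0.07, edgeR adjusted p = 0.00203). RBL2 (p130), the RB relative of quiescent cells, had 100.1 and 98.8 CPM with scramble and 101 and 99.8 CPM with the IRF2BP2 shRNA, with overlapping groups (log2 fold change 0.015, edgeR adjusted p = 0.802). The share of RB1 in the family total per kilobase was 31.6% and 31.5% with scramble and 22.4% and 20.8% with the IRF2BP2 shRNA. That of RBL1 was 21.2% and 22.6% with scramble and 28.7% and 29.6% with the IRF2BP2 shRNA, so both shares differed without overlap and in opposite directions.

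**Figure D3:**
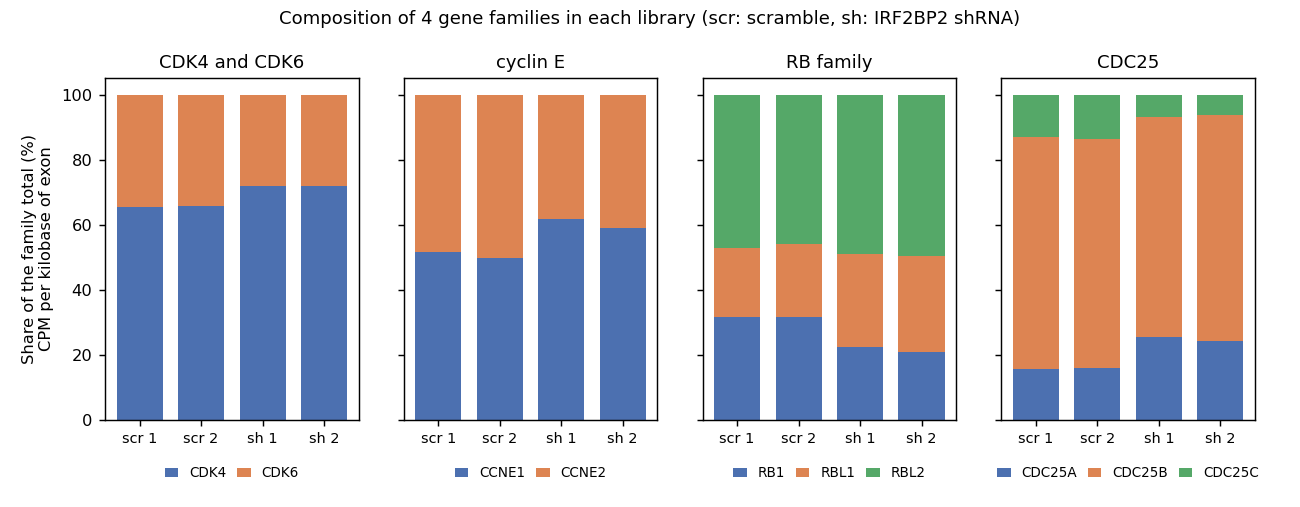
Share of each gene in its family total (y axis, percent of summed CPM per kilobase of exon) in each of the 4 libraries for CDK4 and CDK6, cyclin E, the RB family and the CDC25 phosphatases. The shares of the 2 libraries of a group lie close together. RB1, CDK6, CCNE2 and CDC25C take smaller shares in both IRF2BP2 shRNA libraries than in both scramble libraries. INTS8 overlaps 37.0% of the CCNE2 exon bases, so the CCNE2 share is uncertain.

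Among the E2F factors 4 of 8 rose, 1 fell and 3 were not called, where 31.5% of all genes with a mean of at least 10 CPM rose and 25.8% fell. The activator E2F1 had 127 and 136 CPM with scramble and 176 and 178 CPM with the IRF2BP2 shRNA (log2 fold change 0.43, standard error 0.043, edgeR adjusted p = 1.08e-05), with both shRNA libraries above both controls. E2F2, another activator, had 96.1 and 92.0 CPM with scramble and 104 and 103 CPM with the IRF2BP2 shRNA (log2 fold change 0.14, edgeR adjusted p = 0.0183). E2F2 was no longer called with upper quartile scaling (adjusted p = 0.0992), a filter at a mean of 10 CPM (0.0735) or DESeq2 (0.0670) and without scramble replicate 2 (0.0817), IRF2BP2 shRNA replicate 1 (0.0993) or IRF2BP2 shRNA replicate 2 (0.0660), and over 11 alternatives its adjusted p spanned 0.00843 to 0.0993. The activator E2F3 had 103 and 102 CPM with scramble and 94.4 and 96.9 CPM with the IRF2BP2 shRNA, slightly lower in both shRNA libraries and not called (log2 fold change -0.10, edgeR adjusted p = 0.0637). E2F3 passed the test with upper quartile scaling (adjusted p = 0.0109) or a filter at a mean of 10 CPM (0.0149), and over 11 alternatives its adjusted p spanned 0.0109 to 0.351. The repressors E2F4 and E2F6 also rose. E2F4, the E2F of the DREAM complex, had 86.7 and 88.0 CPM with scramble and 129 and 135 CPM with the IRF2BP2 shRNA (log2 fold change 0.60, standard error 0.041, edgeR adjusted p = 5.43e-07). E2F6, which represses without RB proteins, had 40.5 and 38.4 CPM with scramble and 58.8 and 61.8 CPM with the IRF2BP2 shRNA (log2 fold change 0.61, standard error 0.065, edgeR adjusted p = 1.81e-05). The E2F5 repressor had 44.3 and 42.6 CPM with scramble and 45.4 and 47.7 CPM with the IRF2BP2 shRNA and was not called (log2 fold change 0.10, edgeR adjusted p = 0.274). Of the atypical repressors, which shut off E2F targets late in S phase, E2F7 had 30.5 and 28.7 CPM with scramble and 23.7 and 22.1 CPM with the IRF2BP2 shRNA and fell (log2 fold change -0.37, standard error 0.083, edgeR adjusted p = 0.00387). E2F8, its relative, had 20.1 and 21.2 CPM with scramble and 20.7 and 19.6 CPM with the IRF2BP2 shRNA with overlapping groups (log2 fold change -0.037, edgeR adjusted p = 0.781). E2F1 held the largest share of the E2F total per kilobase, 36.4% and 38.3% with scramble and 40.3% and 39.9% with the IRF2BP2 shRNA. TFDP1, the main partner that E2F factors need to bind DNA, had 150.0 and 155 CPM with scramble and 135 and 128 CPM with the IRF2BP2 shRNA, a fall of 1.16-fold (log2 fold change -0.22, edgeR adjusted p = 0.00132). TFDP2, the other partner, had 27.5 and 60.7 CPM with scramble and 35.1 and 29.3 CPM with the IRF2BP2 shRNA: scramble replicate 2 stood apart from the other 3 libraries (log2 fold change -0.45, standard error 0.56, edgeR adjusted p = 0.624). TFDP2 passed the test without scramble replicate 1 (adjusted p = 1.06e-05), and over 11 alternatives its adjusted p spanned 1.06e-05 to 0.868. Without scramble replicate 2 its log2 fold change was 0.23, so its direction changed with 1 library.

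The MuvB core, which switches between DREAM and the mitotic activators, had 2 of its 4 listed subunits lower, where 21.4% of all genes tested fell. LIN54, the subunit that binds the CHR, had 36.6 and 34.9 CPM with scramble and 27.1 and 25.1 CPM with the IRF2BP2 shRNA (log2 fold change -0.45, standard error 0.079, edgeR adjusted p = 7.25e-04). LIN52 had 21.5 and 21.8 CPM with scramble and 17.5 and 18.5 CPM with the IRF2BP2 shRNA (log2 fold change -0.26, edgeR adjusted p = 0.0342). LIN52 was no longer called with no filter on low counts (adjusted p = 0.0714) or DESeq2 (0.153) and without scramble replicate 1 (0.0864), scramble replicate 2 (0.102), IRF2BP2 shRNA replicate 1 (0.211) or IRF2BP2 shRNA replicate 2 (0.0987), and over 11 alternatives its adjusted p spanned 0.0119 to 0.211. LIN9 had 20.3 and 24.3 CPM with scramble and 26.2 and 26.6 CPM with the IRF2BP2 shRNA and was not called (log2 fold change 0.24, edgeR adjusted p = 0.0655). LIN9 passed the test without scramble replicate 2 (adjusted p = 0.0101), and over 11 alternatives its adjusted p spanned 0.0101 to 0.371. LIN37 had 4.20 and 4.13 CPM with scramble and 4.16 and 4.96 CPM with the IRF2BP2 shRNA (log2 fold change 0.13, edgeR adjusted p = 0.647), a difference that was not detectable at this depth. RBBP4, the histone-binding subunit of MuvB and of several chromatin complexes, fell 1.79-fold, from 320.2 ± 9.97 to 179 ± 4.21 CPM (log2 fold change -0.84, edgeR adjusted p = 4.94e-08; errors are SD, n = 2). Of the activators that the core recruits, MYBL2 rose and FOXM1 fell slightly. MYBL2 (B-MYB), which acts first and is itself an E2F target, had 201 and 209 CPM with scramble and 326 and 343 CPM with the IRF2BP2 shRNA, a 1.63-fold rise with no overlap (log2 fold change 0.71, standard error 0.043, edgeR adjusted p = 2.28e-07). FOXM1, which acts later, had 316 and 294 CPM with scramble and 286 and 273 CPM with the IRF2BP2 shRNA, just below the controls (log2 fold change -0.13, standard error 0.046, edgeR adjusted p = 0.0443). FOXM1 was no longer called with RLE scaling (adjusted p = 0.0616), no filter on low counts (0.154) or DESeq2 (0.0525) and without scramble replicate 1 (0.256), IRF2BP2 shRNA replicate 1 (0.0590) or IRF2BP2 shRNA replicate 2 (0.321), and over 11 alternatives its adjusted p spanned 0.00485 to 0.321. Without scramble replicate 1 its log2 fold change was -0.066.

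The regulators of S phase, G2 and mitotic entry were mostly lower. Among 10 there were 7 falls and 1 rise, and their median log2 fold change was -0.40. Of all genes with a mean of at least 10 CPM, 25.8% fell and 31.5% rose. CDK1, the mitotic kinase (chr10:60778331-60794852), had 216 and 226 CPM with scramble and 129 and 129 CPM with the IRF2BP2 shRNA, a 1.71-fold fall with both shRNA libraries far below both controls (log2 fold change -0.77, standard error 0.041, edgeR adjusted p = 6.87e-08). CDC25C, a phosphatase that activates CDK1, had 24.7 and 25.5 CPM with scramble and 13.0 and 12.6 CPM with the IRF2BP2 shRNA, the largest fall of this group (log2 fold change -0.97, standard error 0.093, edgeR adjusted p = 7.43e-06). CDKN3, a phosphatase that acts on CDKs, had 44.7 and 46.8 CPM with scramble and 31.4 and 27.8 CPM with the IRF2BP2 shRNA (log2 fold change -0.63, standard error 0.08, edgeR adjusted p = 7.21e-05). Cyclins A2, F and B2 fell, and B1 was not called. Cyclin A2 (CCNA2), which acts in S phase and G2, had 206 and 203 CPM with scramble and 166 and 171 CPM with the IRF2BP2 shRNA (log2 fold change -0.28, edgeR adjusted p = 1.42e-04). Cyclin F (CCNF), a ubiquitin ligase subunit and not a CDK partner, had 107 and 104 CPM with scramble and 78.9 and 77.7 CPM with the IRF2BP2 shRNA (log2 fold change -0.43, edgeR adjusted p = 1.06e-05). CCNB2, one of the mitotic cyclins, had 140.3 and 138 CPM with scramble and 105 and 110.0 CPM with the IRF2BP2 shRNA (log2 fold change -0.37, edgeR adjusted p = 1.83e-05). CCNB1, the main cyclin of CDK1, had 242 and 245 CPM with scramble and 229 and 228 CPM with the IRF2BP2 shRNA, below both controls by 1.07-fold and not called (log2 fold change -0.094, edgeR adjusted p = 0.0724). CCNB1 passed the test with upper quartile scaling (adjusted p = 0.0113) or a filter at a mean of 10 CPM (0.0108), and over 11 alternatives its adjusted p spanned 0.0108 to 0.296. The kinases that hold CDK1 back went opposite ways. WEE1, in the nucleus, had 106 and 109 CPM with scramble and 76.6 and 77.7 CPM with the IRF2BP2 shRNA and fell (log2 fold change -0.48, standard error 0.042, edgeR adjusted p = 4.44e-06). PKMYT1, its membrane-bound relative, had 75.5 and 75.0 CPM with scramble and 86.9 and 91.5 CPM with the IRF2BP2 shRNA and rose (log2 fold change 0.25, standard error 0.047, edgeR adjusted p = 0.00140). CDC25B, which starts CDK1 activation, had 173 and 170.3 CPM with scramble and 167 and 181 CPM with the IRF2BP2 shRNA with overlapping groups (log2 fold change 0.017, edgeR adjusted p = 0.801). The share of CDC25A in the CDC25 total per kilobase was 15.6% and 16.1% with scramble and 25.4% and 24.1% with the IRF2BP2 shRNA. That of CDC25C was 13.1% and 13.6% with scramble and 6.84% and 6.26% with the IRF2BP2 shRNA, and neither share overlapped between groups.

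Of 5 genes that work in or with the ubiquitin ligases of the cell cycle, 4 fell (80.0%), each by a log2 fold change between -0.25 and -0.12. Of all genes tested 21.4% fell, and of those with a mean of at least 10 CPM 25.8% fell. SKP2, which targets p27, had 193 and 203 CPM with scramble and 172 and 169 CPM with the IRF2BP2 shRNA (log2 fold change -0.21, standard error 0.041, edgeR adjusted p = 0.00143). FBXO5 (EMI1), an inhibitor of the anaphase promoting complex, had 62.5 and 58.8 CPM with scramble and 52.6 and 49.2 CPM with the IRF2BP2 shRNA (log2 fold change -0.25, standard error 0.064, edgeR adjusted p = 0.00753). FBXO5 was no longer called without IRF2BP2 shRNA replicate 2 (adjusted p = 0.0591), and over 11 alternatives its adjusted p spanned 0.00142 to 0.0591. FZR1 (CDH1), an activator of the same complex in G1, had 89.2 and 86.9 CPM with scramble and 75.8 and 80.2 CPM with the IRF2BP2 shRNA (log2 fold change -0.17, edgeR adjusted p = 0.0122). FZR1 was no longer called with DESeq2 (adjusted p = 0.0635) and without scramble replicate 1 (0.0619) or IRF2BP2 shRNA replicate 1 (0.135), and over 11 alternatives its adjusted p spanned 0.00238 to 0.135. CKS1B, the CDK subunit that works with SKP2, had 128 and 133 CPM with scramble and 118 and 123 CPM with the IRF2BP2 shRNA (log2 fold change -0.12, edgeR adjusted p = 0.0343). CKS1B was no longer called with no filter on low counts (adjusted p = 0.135), DESeq2 (0.165) or limma voom (0.0580) and without scramble replicate 2 (0.167), IRF2BP2 shRNA replicate 1 (0.323) or IRF2BP2 shRNA replicate 2 (0.0597), and over 11 alternatives its adjusted p spanned 0.00532 to 0.323. Its paralog CKS2 had 95.3 and 104 CPM with scramble and 90.2 and 97.4 CPM with the IRF2BP2 shRNA with overlapping groups (log2 fold change -0.09, edgeR adjusted p = 0.223), and reads of these similar paralogs may have been split between them.

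The anti-proliferative genes moved both ways, with 3 of 7 lower (42.9%, against 21.4% of all genes tested), 2 higher (28.6%, against 20.6%) and 2 not called. TXNIP, a thioredoxin-binding protein that also limits glucose uptake (chr1:145992435-145996600), had 91.3 and 95.9 CPM with scramble and 43.4 and 44.6 CPM with the IRF2BP2 shRNA, a 2.12-fold fall and the largest among the 56 regulators tested (log2 fold change -1.09, standard error 0.054, edgeR adjusted p = 4.50e-08). TOB1, of the BTG and TOB family that recruits mRNA deadenylases, had 37.0 and 39.2 CPM with scramble and 21.4 and 21.7 CPM with the IRF2BP2 shRNA (log2 fold change -0.82, standard error 0.078, edgeR adjusted p = 7.23e-06). Its relative TOB2 had 65.5 and 69.7 CPM with scramble and 76.2 and 79.0 CPM with the IRF2BP2 shRNA (log2 fold change 0.20, edgeR adjusted p = 0.0105). TOB2 was no longer called without IRF2BP2 shRNA replicate 2 (adjusted p = 0.0664), and over 11 alternatives its adjusted p spanned 0.00339 to 0.0664. BTG1 had 49.7 and 44.1 CPM with scramble and 32.1 and 28.7 CPM with the IRF2BP2 shRNA and fell (log2 fold change -0.63, standard error 0.085, edgeR adjusted p = 1.21e-04), whereas BTG3, of the same family, rose. Its levels were 26.3 and 23.6 CPM with scramble and 46.6 and 41.8 CPM with the IRF2BP2 shRNA (log2 fold change 0.83, standard error 0.086, edgeR adjusted p = 1.48e-05). BTG2 had 4.35 and 4.88 CPM with scramble and 4.75 and 3.81 CPM with the IRF2BP2 shRNA with overlapping groups (log2 fold change -0.11, edgeR adjusted p = 0.716). GAS1, a growth arrest gene of the cell membrane, had 7.40 and 8.36 CPM with scramble and 8.25 and 8.80 CPM with the IRF2BP2 shRNA, also with overlap (log2 fold change 0.11, edgeR adjusted p = 0.587).

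Genes of DNA replication mostly rose and genes of mitosis mostly fell. Of 56 replication licensing and S phase genes on a fixed list, none of them among the 57, 34 rose and 8 fell, and the median log2 fold change over the list was 0.22. ORC1 (0.84), MCM5 (0.68) and CDC6 (0.56), which load the replicative helicase, and GINS3 (0.73), a part of that helicase, rose most. The 8 that fell include PCNA (-0.20) and TYMS (-0.14), named here after their values were seen. Of 62 mitosis genes, 49 fell and 2 rose, with a median of -0.34. DLGAP5 (-0.70) of the spindle, CENPA (-0.70) of the centromere, TOP2A (-0.70), which untangles chromosomes, and CKAP2L (-0.70) fell most, and the 2 that rose were CDCA5 (0.22) and AURKB (0.14). Among all genes tested, 20.6% rose and 21.4% fell, with a median of -0.011. Among those with a mean of at least 10 CPM, 31.5% rose and 25.8% fell. Similar lists had shown this split in earlier results of these data, so the counts are a description and not independent evidence. The summed level of the mitosis genes was 11371 and 11316 CPM with scramble and 8767 and 8579 CPM with the shRNA, and that of the replication genes 7417 and 7338 against 8536 and 8549 CPM.

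**Figure D4:**
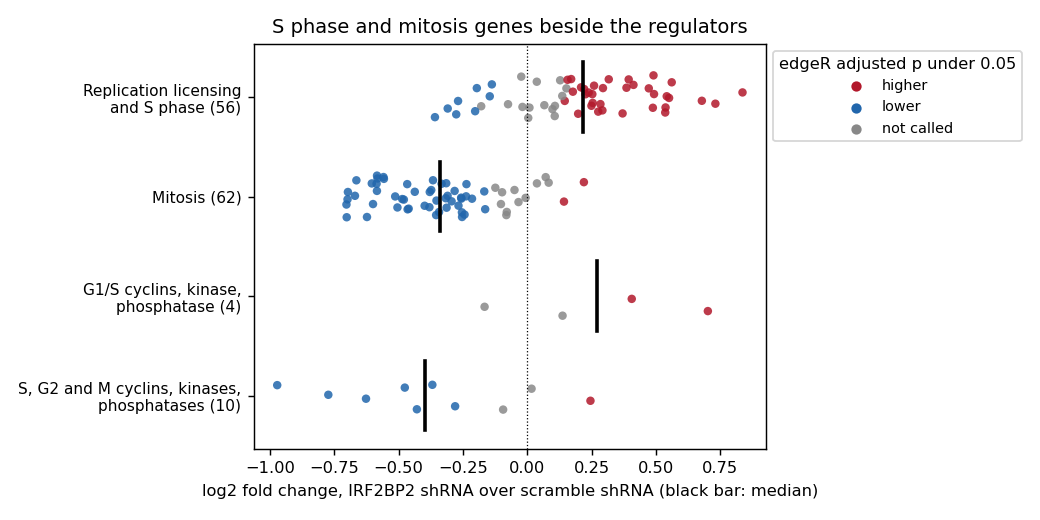
Log2 fold change (x axis, IRF2BP2 shRNA over scramble) of replication and S phase genes, mitosis genes and 2 classes of the regulators; each point is 1 gene, spread vertically for visibility, coloured by its call, and the black bar is the median. The replication median lies at 0.22 and the mitosis median at -0.34, with the G2 and M regulators on the side of the mitosis genes.

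Genes that work beside the regulators moved both ways. Of 27 genes of the anaphase promoting complex and SCF ligases, 9 rose and 7 fell, with CUL1 (0.35), the SCF scaffold, higher and FBXW7 (-0.41), which targets cyclin E, lower. CDC26 (0.45) and ANAPC11 (0.33), subunits of the anaphase promoting complex, were higher. The shares called, 59.3% of these ligase genes, 51.9% of the checkpoint genes and 64.3% of the E2F6 partners, lay near the 57.3% of all genes with a mean of at least 10 CPM. Of 27 checkpoint genes, 10 rose and 4 fell, with MDC1 (0.57) and CLSPN (0.54) higher and NBN (-0.54) lower. Of 14 partners of E2F6 in its repressive complex, 4 rose and 5 fell, with MGA (0.47) and RNF2 (0.42) higher and RYBP (-0.42) lower beside RBBP4.

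The library kit did not mark strand, so where genes of opposite strands overlap, their reads may be mixed. How such reads were counted is not known, since the counting program is not named. The overlap was wide for CDK4 with TSPAN31 (43.2% of the CDK4 exon bases; TSPAN31 log2 fold change -0.0032), for LIN37 with the antisense gene ENSG00000267439 (41.8% of the LIN37 exon bases, with a mean of 5 counts) and for CCNE2 with INTS8 (37.0% of the CCNE2 exon bases; INTS8 log2 fold change 0.045). INTS8 had a mean of 1872 counts against 550.0 for CCNE2, so the CCNE2 value is uncertain. PKMYT1 shares exon bases with PAQR4 (24.5% of the PKMYT1 exon bases; PAQR4 log2 fold change -0.23), FOXM1 with ITFG2 (15.9% of the FOXM1 exon bases; ITFG2 log2 fold change 0.23), CCNA2 with EXOSC9 (9.10% of the CCNA2 exon bases; EXOSC9 log2 fold change 0.21) and CDC25C with FAM53C (8.80% of the CDC25C exon bases; FAM53C log2 fold change 0.12). FAM53C had a mean of 1991 counts against 616 for CDC25C, and the part of this overlap in the CDC25C value was not tested. In PKMYT1, FOXM1 and CCNA2 the partner moved opposite to the regulator. In CCND1, TOB1 and CDK6 it moved the same way. CDK6-AS1 (log2 fold change -0.82) covers 0.7% of the CDK6 exon bases. LTO1 (log2 fold change 0.31) covers 10.3% of the CCND1 exon bases, with a mean of 1035 counts against 29317 for CCND1. TOB1-AS1 (log2 fold change -2.07) covers 11.1% of the TOB1 exon bases, with a mean of 50 counts against 967.5 for TOB1. Neither E2F5 nor RBL2 was called. RBIS (log2 fold change 0.13) covers 16.3% of the E2F5 exon bases, and AKTIP (log2 fold change -0.65) covers 8.3% of the RBL2 exon bases. Other overlaps are not given.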

How the data were processed

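RNA from the 4 libraries was extracted with TRIzol and made into libraries with the Illumina TruSeq RNA kit, per the labels' protocols. The values are raw counts per Ensembl gene, 1 column per library, as deposited by the authors. Per the submitters' processing notes, HISAT2 2.2.0 was the aligner and hg38 the build; for the counting program and its annotation, a name is not given in the sources used here. Columns of the controls carry the name NC, an abbreviation absent from the labels, and were taken as scramble because the other columns name IRF2BP2. Symbols were found for 40995 identifiers; GENCODE release 29 (GRCh38) gave coordinates and exon lengths. The chi-square of counts per degree of freedom was 7.01 within scramble and 5.26 within the shRNA pair, so no library copied another.

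Genes were kept with filterByExpr by group and tested with edgeR 4.0.16 (R 4.3.3), with TMM scaling (factors 0.996 to 1.00) and the robust quasi-likelihood F-test, two-sided. P-values were adjusted by the Benjamini-Hochberg method over 19093 genes at a threshold of 0.05. Standard errors are the size of the log2 fold change divided by the root of F. CPM values are deposited counts per 1000000 of the TMM-scaled library total, and CPM per kilobase divides by exon length. Alternatives used DESeq2 1.42.0 and limma 3.58.1 among others. In simulated data with few changed genes, small folds were often missed and the share of false calls was above the threshold. The labels give no pairing of replicate numbers.

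The regulators and lists were chosen with earlier results of these data known. Every regulator is named; from other lists up to 4 called genes with the largest change were named, where 1 group averaged 5 CPM or more. Promoters came from RefSeq (GRCh38.p14). Some genes of these lists are not reported here.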

Additional observations from a re-analysis of the deposited data

How the results depend on the processing

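Over 12 alternatives (RLE or upper quartile scaling, no filter or a mean of at least 10 CPM, DESeq2, limma voom, a test against 1.5-fold, the replicate block and each library left out), the counts of regulators that rose and fell stayed within 1.5 times of 14 and 26 except under the test against 1.5-fold. That test left 4 higher and 4 lower regulators, 1 higher and 0 lower replication genes and 0 higher and 3 lower mitosis genes, with 0 lower replication and 0 higher mitosis genes at an unadjusted glmTreat p under 0.05; fewer genes are passed by its construction. With 1 library left out, 10 to 14 regulators were higher and 20 to 24 lower, 31 to 37 replication genes were higher and 6 to 8 lower, and 1 to 2 mitosis genes were higher and 46 to 48 lower. The count of mitosis genes higher was 1 in place of 2 with upper quartile scaling, a mean of at least 10 CPM, DESeq2, and without scramble replicate 2 or either IRF2BP2 shRNA library; the cause was not tested. IRF2BP2 stayed called in all 12. Apart from the test against 1.5-fold, 29 of the 40 called regulators kept their call wherever they were tested, and the 11 that did not are given beside their values.

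No called regulator reversed. Regulators that were not called changed sign as log2 fold changes: CDK4 with upper quartile scaling (-0.032) and a mean of at least 10 CPM (-0.024), RBL2 likewise (-0.034 and -0.025), and CDC25B likewise (-0.032 and -0.023). With 1 library left out, CDC25B ranged from -0.038 to 0.077, E2F8 from -0.073 to 0.0055, TFDP2 from -0.90 to 0.23, LIN37 from -3.44e-05 to 0.26 and BTG2 from -0.27 to 0.047. The sign changed for E2F8 and TFDP2 without scramble replicate 2, and for E2F8, CDC25B, LIN37 and BTG2 without IRF2BP2 shRNA replicate 2. The cause was not tested.

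The libraries share only a replicate number: deviations of same-numbered libraries from their group means had a correlation of 0.0604 across genes. With the replicate number as a block, 15 regulators were higher and 26 lower, 36 and 8 replication genes, and 2 and 51 mitosis genes. With 2 libraries a group, spread is estimated with help from other genes, and CDKN2B and CCND2 are limited by depth.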

Other observations

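Cyclins and CDKs that do not drive the cell cycle moved both ways. Of 34 tested, 9 rose and 9 fell. The share called was 52.9%, against 42.0% of all genes tested and 57.3% of those with a mean of at least 10 CPM. CDK15 fell from 6.95 ± 0.349 to 1.64 ± 0.377 CPM (log2 fold change -2.08, edgeR adjusted p = 2.14e-05; errors here are SD, n = 2). CCNG2, a cyclin linked to growth arrest, fell from 41.2 ± 0.214 to 15.0 ± 1.18 CPM (log2 fold change -1.46, edgeR adjusted p = 1.63e-07). CDK19, a kinase of the Mediator complex, fell from 70.4 ± 1.71 to 34.5 ± 0.474 CPM (log2 fold change -1.03, edgeR adjusted p = 1.85e-07). CDK11A rose from 25.4 ± 0.527 to 42.4 ± 2.50 CPM (log2 fold change 0.74, edgeR adjusted p = 1.50e-05), but it has a near-identical copy, CDK11B, and reads may have been split between them.

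MYCN, which the line carries amplified, rose from 5433 ± 110.1 to 7117 ± 70.4 CPM (log2 fold change 0.39, edgeR adjusted p = 5.09e-07).

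TFDP2 was 2.21-fold higher in scramble replicate 2 than in scramble replicate 1. Of 10414 genes with a mean of at least 10 CPM in scramble, 14 had a ratio at least as high, TFDP2 included. Its neighbours on chromosome 3, ATP1B3 and GK5, had ratios of 0.984 and 1.09.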
